A study of Homo sapiens with 12 samples.

Results

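The S100 genes described here are 10 members of the vertebrate S100 family of small calcium-binding proteins, S100A2, S100A3, S100A4, S100A6, S100A10, S100A11, S100A13, S100A14, S100A16 and S100P, among 17818 genes of the deposited expression table. They were chosen by name from a list drawn up with measured values of these data in view, so their levels and differences are given as description and none is tested. The groups were SW480 cells with USP51 overexpressed, SW480 cells with a control vector (NC), HCT116 cells with USP51 overexpressed and HCT116 cells with the same kind of vector. SW480 and HCT116 are established human lines from colorectal carcinoma, and USP51 is a ubiquitin-specific protease that can remove ubiquitin from histones. The labels list 12 libraries, 3 per group, without other treatment. The promoter of the construct and whether cells were clones or pools are not given in the labels. Only the authors' mean of each group could be tied to a label by its column name, so no value carries a standard deviation, an n of replicates or a p-value, and no difference below has a replicate check.

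S100 proteins carry a pair of EF-hand motifs, helix-loop-helix folds that hold a calcium ion. Most work as dimers: calcium binding opens the protein and exposes a surface that grips a target, often an annexin, a cytoskeletal protein or p53. Some members are also released from cells and act on receptors such as AGER. In the gut several of them mark epithelial cells and are known for raised or shifted expression in carcinoma.

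The group means summed to between 15506686 and 15920306 estimated counts. USP51 itself stood at 25.7 TPM (a level scaled by transcript length and by depth) in SW480 with USP51, against 0.513 TPM in SW480 NC. In HCT116 it stood at 40.8 TPM with USP51 and was listed at 0 in NC. Of 8 markers of colon epithelial cancer cells, 7 reached 1 TPM in every mean, with summed levels of 11474 TPM in SW480 with USP51, 10987.5 in SW480 NC, 6326 in HCT116 with USP51 and 6185 in HCT116 NC. The marker below 1 TPM was KRT20 in SW480 and VIL1 in HCT116. Of 6 blood and myeloid markers at most 2 reached 1 TPM in any mean and their sum stayed between 6.27 and 8.41 TPM, with PTPRC at or near 0. Among 5 fibroblast markers in the table, COL1A1 alone reached 1 TPM, and their sum was 1.5 TPM in SW480 with USP51, 1.74 in SW480 NC, 15.4 in HCT116 with USP51 and 10.1 in HCT116 NC. No endothelial marker reached 1 TPM. The part of any of these genes in the differences below was not tested. In bulk RNA, fewer cells making a transcript and less transcript per cell cannot be told apart.

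The family was abundant in both lines, but a different member led in each. The 10 genes together made up 1.05% of all TPM in SW480 with USP51 and 1.04% in SW480 NC, against 0.736% in HCT116 with USP51 and 0.776% in HCT116 NC. S100A4, S100A6, S100A10 and S100A11 supplied 88.8 to 93.3% of that sum. In SW480 the order was S100A11, S100A4, S100A6 and S100A10. In HCT116 S100A6 came first, then S100A4, S100A11 and S100A10. These orders were the same with USP51 and with NC. S100P was at the bottom of the order in every mean, below 1 TPM.

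**Figure D1:**
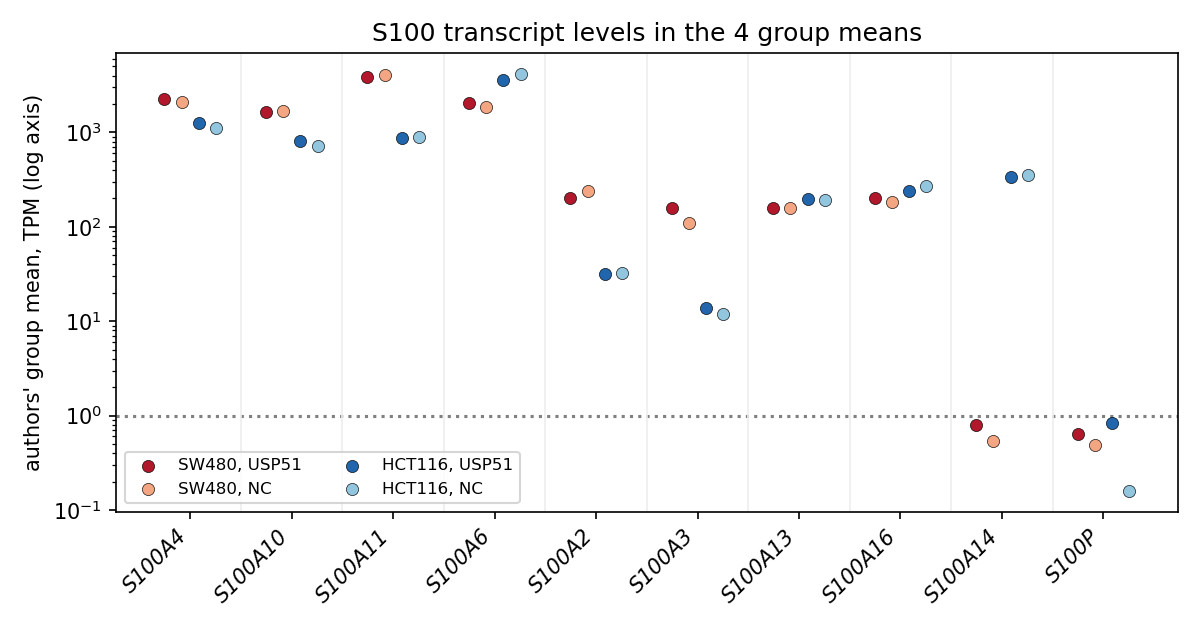
Levels of the 10 S100 genes in TPM (log axis), 1 point for each authors' group mean and no error bars because only means were used. S100A2, S100A3, S100A4, S100A10 and S100A11 lie higher in both SW480 means than in both HCT116 means, S100A6, S100A13, S100A14 and S100A16 lower, and the dotted line marks 1 TPM.

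The lines were compared first, because most of their S100 levels lay further apart than the USP51 and NC means of either line. Of the 9 members with at least 1 TPM in an NC mean, 4 were at least 2-fold higher in SW480 NC than in HCT116 NC and 2 at least 2-fold lower. Over all 13033 genes compared this way, 28% were at least 2-fold apart in either direction, 13.4% higher and 14.7% lower in SW480 NC. The choice of members knew these values, so their share is not read against that background. Counts of genes past a fold use log2((TPM + 1) / (TPM + 1)), while the ratios given below are of counts per total count with a 95% exact Clopper-Pearson interval. These intervals take each mean as if it were a single library's count. They hold counting error, and neither the spread between cultures nor the choice of scaling.

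S100A3 and S100A2 showed the largest differences toward SW480. S100A3, a zinc- and calcium-binding member best known from the hair cuticle, stood at 157.7 TPM in SW480 with USP51, 109.9 in SW480 NC, 13.8 in HCT116 with USP51 and 11.8 in HCT116 NC. SW480 NC had 9.29 times the HCT116 NC level (7.07 to 12.4), and the ratio was 12 (9.30 to 15.7) between the USP51 means. S100A2, a nuclear member of epithelia that can bind p53, stood at 201.3, 239.2, 31.9 and 32.6 TPM in SW480 with USP51, SW480 NC, HCT116 with USP51 and HCT116 NC. Its ratio between the NC means was 7.38 (6.44 to 8.49). Both genes were expressed in both lines, and both SW480 means lay above both HCT116 means.

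S100A3 and S100A2 lie near each other on the minus strand of chromosome 1 in GRCh38, S100A3 (NCBI gene 6274) at 153547329 to 153549258 and S100A2 (NCBI gene 6273) at 153561108 to 153565844. Their promoters are shown because they were the members with the motif TGANTCA, the form bound by AP-1 factors, in the 250 bases before an annotated start. The motif was chosen after the sequences had been seen and was searched on both strands. It occurs in 2 of the 14 windows of the members and in 6.57% of all 35116 RefSeq promoter windows of that length. Capitals mark it, and the sequences come from RefSeq (GRCh38.p14), 5′ to 3′ on the minus strand. The first base of the motif lies 52 bases before the start in S100A2 and 225 before it in S100A3. A match is a description of letters, not of binding.
S100A2, chr1:153565845-153566094: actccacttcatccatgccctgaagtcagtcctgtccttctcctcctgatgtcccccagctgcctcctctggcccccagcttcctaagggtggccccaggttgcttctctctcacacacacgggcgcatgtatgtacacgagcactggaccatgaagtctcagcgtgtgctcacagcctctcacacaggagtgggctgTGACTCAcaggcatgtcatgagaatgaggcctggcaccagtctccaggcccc
S100A3, chr1:153549259-153549508: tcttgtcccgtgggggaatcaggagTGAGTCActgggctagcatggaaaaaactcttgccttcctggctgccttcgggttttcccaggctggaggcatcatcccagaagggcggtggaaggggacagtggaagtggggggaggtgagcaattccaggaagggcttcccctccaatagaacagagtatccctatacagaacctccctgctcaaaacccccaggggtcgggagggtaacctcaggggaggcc

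S100A11, S100A10 and S100A4, 3 of the 4 most abundant members, were also higher in SW480. S100A11, a partner of annexin A1 found in epithelia, stood at 3829 TPM in SW480 with USP51, 4065 in SW480 NC, 877.3 in HCT116 with USP51 and 889.3 in HCT116 NC. That is 4.59 times as much in SW480 NC as in HCT116 NC (4.4 to 4.79). It ranked 30 among all genes of SW480 NC and 150 in HCT116 NC. S100A10, the member that has lost calcium binding and pairs with annexin A2 at the plasma membrane, was at 1641, 1678, 819.2 and 726.4 TPM in the same order of groups (NC ratio 2.32, 2.22 to 2.42). S100A4, which binds the heavy chain of non-muscle myosin and is known for a role in metastasis, was at 2253, 2110, 1256 and 1104 TPM. Its NC ratio was 1.93 (1.85 to 2.02). The log2 ratio was 0.93 on TPM + 1, just under 2-fold, and 1.04 in CPM with TMM or RLE factors, which scale counts by depth and by the makeup of the library. RefSeq lists several processed pseudogenes of S100A11, so reads from near-identical copies could enter its value.

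S100A6 and S100A14 were the members lower in SW480 by at least 2-fold. S100A6, calcyclin, a binding partner of CACYBP, stood at 2060 TPM in SW480 with USP51, 1853 in SW480 NC, 3586 in HCT116 with USP51 and 4179 in HCT116 NC. The ratio was 0.446 (0.428 to 0.466) between the NC means and 0.596 (0.572 to 0.622) between the USP51 means, where the log2(TPM + 1) difference of -0.80 no longer reached 2-fold. S100A14, a member of epithelia, was close to the floor of counting in SW480. It stood at 0.797 TPM in SW480 with USP51 and 0.533 in SW480 NC, against 339.7 TPM in HCT116 with USP51 and 353.0 in HCT116 NC. The counts were 7, 4.33, 2684 and 2901 in that order of groups. SW480 NC held 0.0014 of the HCT116 NC level (0.00038 to 0.00358), and SW480 with USP51 held 0.00254 of the level of HCT116 with USP51 (0.00102 to 0.00524). At mean counts of 7 and 4.33 no difference is read between the SW480 means (ratio 1.72, 0.437 to 8.0). That interval takes each mean as a single library's count.

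**Figure D2:**
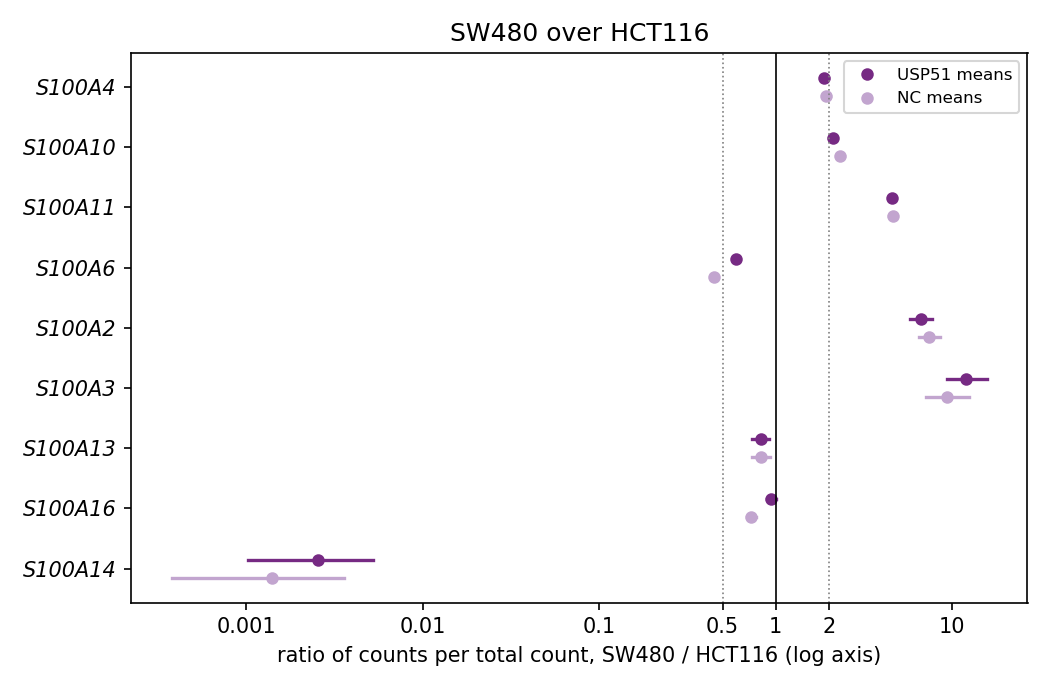
Ratio of SW480 to HCT116 in counts per total count (log axis) for 9 S100 genes, between the USP51 means (dark) and between the NC means (light). Points are ratios and bars their 95% exact counting intervals, dotted lines mark 0.5 and 2, S100P is left out for its low counts, and S100A14 lies near 0.001 while S100A3 and S100A2 lie between 6 and 12.

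S100A14 and S100A16 are direct neighbours on the minus strand, with 1118 bases between them, and they can pair with each other as proteins. S100A14 (NCBI gene 57402) lies at 153614255 to 153616325 and S100A16 (NCBI gene 140576) at 153606883 to 153613137. The low level of S100A14 in SW480 was not shared by S100A16, a broadly expressed member, which stood at 202.0 TPM in SW480 with USP51 and 181.7 in SW480 NC, against 237.9 in HCT116 with USP51 and 267.9 in HCT116 NC. The NC ratio of S100A16 was 0.727 (0.685 to 0.772). The total differed by less than 1.5-fold, while its transcripts differed in opposite directions.

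Transcripts of S100A16 start at different places, and the lines differed in their estimated shares. In GENCODE 29 the transcript matched to NM_080388.3 starts upstream, and those matched to NM_001317008.1 and NM_001317007.1 start 3746 and 3739 bases further along the gene (matched by accession without its version). The upstream transcript stood at 91.8 TPM in SW480 with USP51, 74.3 in SW480 NC, 192.9 in HCT116 with USP51 and 223.2 in HCT116 NC. The downstream pair summed to 110.2 and 107.3 TPM in the SW480 means, against 45 and 44.7 TPM in the HCT116 means, with USP51 first in each line. The upstream transcript made up 45.5% of S100A16 in SW480 with USP51 and 40.9% in SW480 NC, against 81.1% in HCT116 with USP51 and 83.3% in HCT116 NC. Between the NC means the upstream ratio was 0.335 (0.307 to 0.365) and the downstream ratio 2.35 (2.11 to 2.61). Transcripts of a gene share most of their exons, the tool that divided the reads among them is not given in the sources used here, and its error is not in these intervals.

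The 250 bases before the RefSeq starts of these neighbours are shown, because the lines differed in S100A14 and in the estimated shares of the S100A16 starts. They come from RefSeq (GRCh38.p14) and read 5′ to 3′ on the minus strand. Capitals mark TATAA, searched on both strands, the core of a TATA box. S100A14 has it 29 bases before its start, and neither S100A16 window holds it. It occurs in 5 of the 14 windows of the members (S100A4, S100A6, S100A13, S100A14 and S100P) and in 18.9% of all windows. TATAA and TGANTCA did not occur together in any window of a member. The windows hold 4 CG dinucleotides for S100A14, 1 for the upstream and 6 for the downstream start of S100A16, against a median of 11 over all windows (quartiles 3 and 23).
S100A14, chr1:153616326-153616575: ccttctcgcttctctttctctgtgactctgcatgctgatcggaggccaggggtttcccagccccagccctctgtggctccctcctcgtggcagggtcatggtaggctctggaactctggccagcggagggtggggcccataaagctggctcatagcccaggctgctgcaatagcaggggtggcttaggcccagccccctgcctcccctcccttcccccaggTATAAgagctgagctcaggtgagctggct
S100A16 upstream, chr1:153613138-153613387: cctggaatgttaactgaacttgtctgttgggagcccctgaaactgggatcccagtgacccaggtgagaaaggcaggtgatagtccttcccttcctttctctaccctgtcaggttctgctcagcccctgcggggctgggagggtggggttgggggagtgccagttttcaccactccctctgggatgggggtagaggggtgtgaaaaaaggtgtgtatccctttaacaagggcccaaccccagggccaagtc
S100A16 downstream, chr1:153609356-153609605: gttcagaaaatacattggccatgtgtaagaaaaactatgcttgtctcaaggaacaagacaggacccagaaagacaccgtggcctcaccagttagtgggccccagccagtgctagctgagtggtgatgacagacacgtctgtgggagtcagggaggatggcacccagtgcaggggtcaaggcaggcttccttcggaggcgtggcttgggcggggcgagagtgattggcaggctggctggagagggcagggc

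S100A13, which takes part in the unconventional export of FGF1 and IL1A, also differed by less than 1.5-fold in total between the lines, over different transcript shares. It stood at 158.4 TPM in SW480 with USP51, 159.9 in SW480 NC, 198.7 in HCT116 with USP51 and 193.8 in HCT116 NC, with 12 transcripts in the table. The NC ratio of S100A13 was 0.826 (0.738 to 0.923). The pair NM_001024211.1 and NM_005979.2, which share a start, made up 33.0% and 39.6% of the SW480 levels with USP51 and NC, against 75.2% and 67.1% of the HCT116 levels. NM_001024212.1, which starts further along the gene, made up 43.3% and 41.5% in SW480, against 20.3% and 23.2% in HCT116. NM_001024213.1 made up 15.4% and 10.8% in SW480, against 0.733% and 3.93% in HCT116. The last 2 transcripts weighed more in SW480, while the first pair weighed more in HCT116. In GENCODE 29, 10.6% of the exon bases of S100A13 overlap S100A1 on the other strand and 24.2% overlap the processed transcript AL162258.1 on the same strand, and whether counting used strand is not given.

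**Figure D3:**
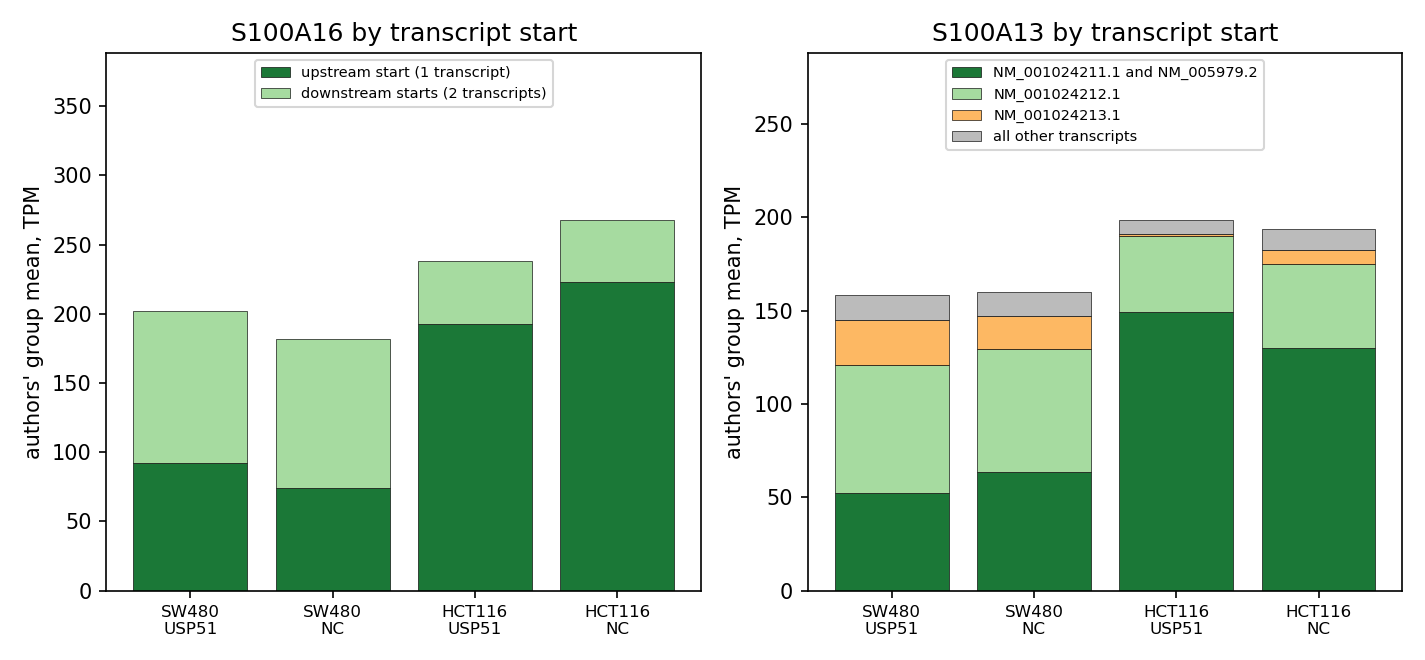
Levels in TPM of S100A16 (left) and S100A13 (right) in the 4 authors' group means, stacked by groups of transcripts, without error bars. For S100A13, 8 further transcripts are pooled as all other transcripts, whatever their start. The upstream start holds 40.9 to 45.5% of S100A16 in SW480 and 81.1 to 83.3% in HCT116, and NM_001024211.1 with NM_005979.2 holds 33.0 to 39.6% of S100A13 in SW480 and 67.1 to 75.2% in HCT116.

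S100P, which binds ezrin and the receptor AGER and is raised in several carcinomas, was at the edge of detection throughout. It stood at 0.630 TPM in SW480 with USP51, 0.493 in SW480 NC, 0.843 in HCT116 with USP51 and 0.160 in HCT116 NC. The mean counts lay between 0.333 and 1.67, all under a floor of 3 counts, so no fold is given. S100P (NCBI gene 6286) lies apart from the others, on chromosome 4 at 6693878 to 6697170 on the plus strand.

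With USP51 overexpressed, no S100 member with at least 1 TPM was 1.5-fold away from NC in either line. In SW480 this covers 8 members, of which 4 lay above and 4 below NC in TPM and 6 above and 2 below in FPKM or CPM, with a median log2 ratio of 0.04 in TPM. Over all genes there 38.8% lay above and 61.1% below NC in TPM. In HCT116 it covers 9 members, 4 above and 5 below in TPM and 3 above and 6 below in CPM, with a median of -0.02 in TPM. Over all genes there 60.8% lay above and 39.2% below NC. Over all genes 1.41% of 12175 were at least 1.5-fold apart in SW480 and 2.11% of 12393 in HCT116, with medians of -0.04 and 0.04 in TPM. Of the 172 such genes in SW480, 37.8% were higher in TPM, while 53.8% of the 236 found in CPM with TMM factors were higher. The choice of members knew these values as well.

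Among members with at least 1 TPM, S100A3 in SW480 had the largest difference, at 157.7 TPM with USP51 against 109.9 TPM with NC. The counts were 800 with USP51 and 532 with NC, a ratio of 1.48 (1.3 to 1.65), and the log2 ratio on TPM + 1 was 0.52. A log2 ratio that high or higher was found for 0.838% of genes in SW480, where 38.8% lay above NC in TPM. S100A3 was picked here as the largest of the members, so this share gives its place among genes and is not a test. In HCT116 the same gene had mean counts of 65 with USP51 and 58 with NC, a ratio of 1.14 (0.790 to 1.66). For S100A3 this interval, which takes each mean as a single library's count, included 1, so no difference is read from it. S100A2, its neighbour in the cluster, went the other way in SW480, at 201.3 TPM with USP51 against 239.2 TPM with NC (ratio 0.866, 0.808 to 0.928). In HCT116 the S100A2 ratio was 0.964 (0.80 to 1.16).

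S100A6 and S100A16 lay above NC in SW480 and below NC in HCT116. S100A6 was at 2060 TPM with USP51 against 1853 with NC in SW480 (ratio 1.13, 1.08 to 1.19), and at 3586 TPM with USP51 against 4179 with NC in HCT116 (ratio 0.846, 0.817 to 0.875). Its log2 ratio in HCT116 was -0.22, and 3.45% of genes there had a value that low or lower, where 39.2% lay below NC in TPM. S100A6 had the lowest value of the members there, so this share too is not a test. S100A16 had ratios of 1.14 (1.07 to 1.21) in SW480 and 0.874 (0.826 to 0.925) in HCT116. The upstream transcript of S100A16 lay further from 1 than the downstream pair, with ratios of 1.27 (1.15 to 1.41) in SW480 and 0.848 (0.795 to 0.904) in HCT116. The downstream pair had ratios of 1.06 (0.975 to 1.14) in SW480 and 0.982 (0.866 to 1.11) in HCT116. In SW480 the downstream pair also held more estimated counts with USP51, 1268 against 1178. The division of reads among transcripts is not in these intervals. The log2 ratios of the lines differed by 0.37 for S100A6, 0.32 for S100A16 and 0.31 for S100A3, SW480 minus HCT116. A difference of at least 0.3 in either direction was found for 20.9% of the 11332 genes measured in both lines, and whether it exceeds the spread between cultures was not tested.

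The other abundant members differed by small amounts. S100A4 was above NC in both lines, with ratios of 1.09 (1.05 to 1.13) in SW480 and 1.12 (1.06 to 1.18) in HCT116. S100A10 had a ratio of 1.0 (0.971 to 1.04) in SW480, where its log2 ratio changed sign with the scaling (-0.03 to 0.02), and 1.11 (1.05 to 1.17) in HCT116. S100A11 had ratios of 0.965 (0.941 to 0.990) in SW480 and 0.971 (0.920 to 1.03) in HCT116. S100A13 had ratios of 1.0 (0.893 to 1.13) in SW480 and 1.01 (0.909 to 1.12) in HCT116, and its sign changed with the scaling in both lines. Its transcript NM_001024213.1 stood at 24.4 TPM with USP51 against 17.3 with NC in SW480 (ratio 1.46, 1.004 to 2.14), and at 1.46 TPM with USP51 against 7.63 with NC in HCT116 (ratio 0.186, 0.0465 to 0.546). The HCT116 values rest on 4.03 estimated counts with USP51 and 21.8 with NC, and the division of reads among transcripts is not in these intervals. Other S100A13 transcripts with low counts also differed in HCT116, in both directions. NM_005979.2 had 25.2 estimated counts with USP51 against 7.09 with NC, and XM_005245434.3 had 2.46 against 12.6. S100A14 in HCT116 had 0.944 (0.895 to 0.995). On these high counts an interval can exclude 1 for a difference of a few percent, which says nothing about the spread between cultures.

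**Figure D4:**
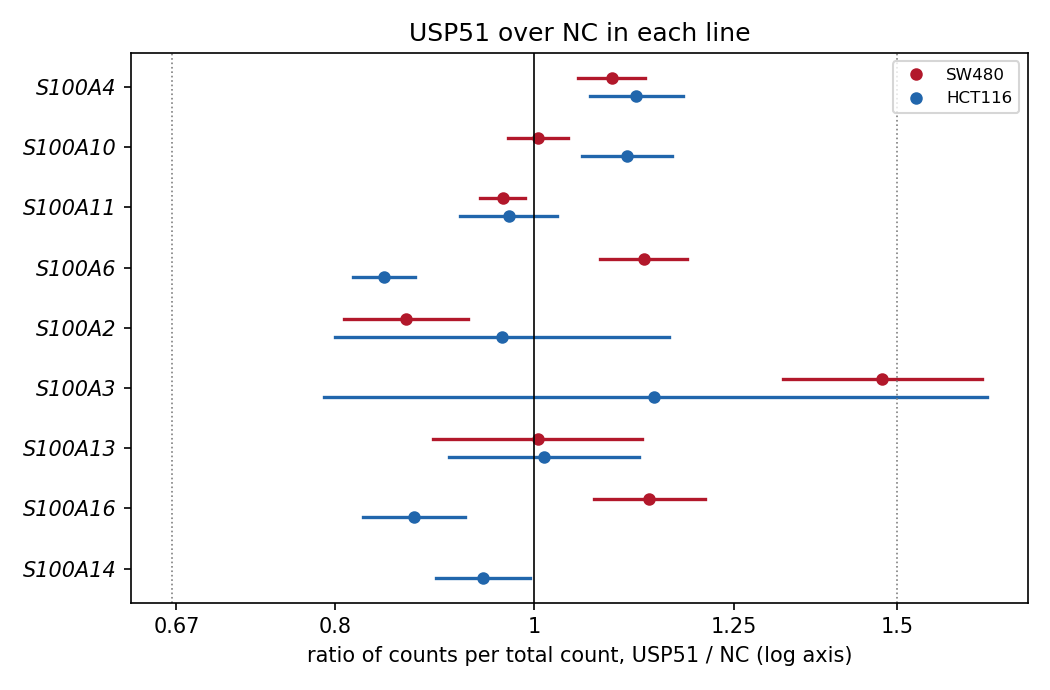
Ratio of the USP51 mean to the NC mean in counts per total count (log axis) for S100 genes in SW480 and HCT116, with 95% exact counting intervals as bars. Dotted lines mark 1.5-fold in each direction. S100A3 in SW480 lies nearest to it at 1.48, S100A6 and S100A16 lie on opposite sides of 1 in the lines, and S100P and, in SW480, S100A14 are left out for their low counts.

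Most other S100 genes measured were below 1 TPM in every mean. Of 11 further family members 6 were measured, and S100A5 and S100A1 reached 1 TPM in any mean. S100A5, which lies between S100A6 and S100A4, stood at 3.12 TPM in SW480 with USP51, 3.34 in SW480 NC, 8.85 in HCT116 with USP51 and 8.51 in HCT116 NC. S100A1, a calcium sensor of heart muscle, stood at 0.217, 0.340, 2.57 and 0.793 TPM in that order. Its HCT116 means were 7.33 counts with USP51 and 2.33 with NC, and its exons overlap those of S100A13. After rounding to whole counts the ratio was 3.57 (0.680 to 35.2), with each mean taken as a single library's count. S100A9, a myeloid alarmin, was listed at 0.317 TPM in SW480 with USP51 and at 0 in the other means. That value is a mean of 1 count, under the floor of 3 counts, so no difference is read from it. Among the fused-type genes, long S100 relatives of the skin barrier, TCHH reached 1 TPM, at 2.20 TPM in SW480 with USP51 and 1.63 in SW480 NC, against 0.113 and 0.0567 TPM in HCT116.

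Genes for the proteins that S100 members bind did not pass 1.5-fold with USP51 in either line. Over all genes 1.41% in SW480 and 2.11% in HCT116 were at least 1.5-fold apart. Of 14 partner genes, 10 lay below and 4 above NC in SW480 (median log2 ratio -0.18). In HCT116 11 lay above and 3 below NC (median 0.13). Over all genes 61.1% lay below NC in SW480 and 60.8% above NC in HCT116, the same way as the list. With TMM factors the split was 9 below and 5 above in SW480, and 9 above and 5 below in HCT116. The medians over all genes had the same signs as those of the list in TPM, and the opposite signs in CPM. Between the lines ANXA1 and PPFIBP1 differed more than S100A11 and S100A4, the S100 genes that bind them. ANXA1, the partner of S100A11, was at 12 TPM in SW480 with USP51 and 11 in SW480 NC, against 589.0 in HCT116 with USP51 and 769.8 in HCT116 NC. S100A11 was 4.59-fold higher in SW480 NC, so this pair of genes differed in opposite directions. EZR, the partner of S100P, was at 109.6 and 130.0 TPM in SW480, against 667.6 and 615.3 TPM in HCT116, with USP51 first in each line. S100P was too low for EZR to be compared with it. PPFIBP1, a liprin bound by S100A4, was at 89.2 and 112.7 TPM in SW480, against 21.5 and 14.3 TPM in HCT116. ANXA2, the partner of S100A10, was named after its values were seen. It stood at 3042 TPM in SW480 with USP51, 3783 in SW480 NC, 1879 in HCT116 with USP51 and 1792 in HCT116 NC, and was higher in SW480 NC than in HCT116 NC by 2.10 (2.07 to 2.13), as S100A10 was by 2.32.

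Of 13 other EF-hand genes, including the calmodulins and calpains, none passed 1.5-fold in either line. In HCT116 12 of them were compared. Over all genes 1.41% in SW480 and 2.11% in HCT116 were at least 1.5-fold apart, so this count is not read as a result about the list. CALB2, calretinin, was at least 4-fold apart between the NC means, at 1.0 TPM in SW480 and 8.75 in HCT116. Of FGF1, IL1A and SYT1, cargo and partner of S100A13 in export, SYT1 alone reached 1 TPM, at 6.69 and 6.57 TPM in SW480, against 36.6 and 25.4 TPM in HCT116, with USP51 first.

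**Figure D5:**
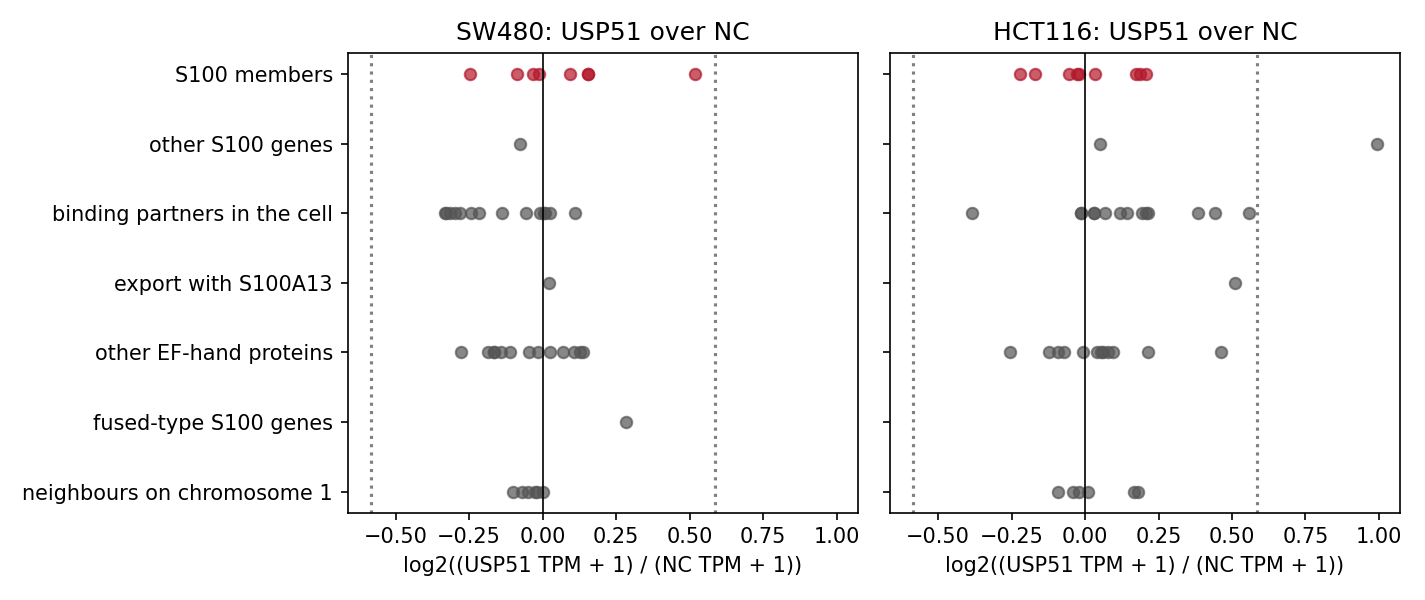
Difference between USP51 and NC on log2(TPM + 1) for the S100 members and 6 lists of related genes in SW480 (left) and HCT116 (right), 1 point per gene with at least 1 TPM in a mean. Dotted lines mark 1.5-fold, and the point beyond them is S100A1 in HCT116.

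Genes around the cluster were few in the table. Those compared were less than 4-fold apart between the NC means, so the rule for naming genes given below names none of them. The share of all genes past 4-fold was not counted, and the members are not set against these genes. The cluster from S100A6 to S100A13 spans 99.8 kb at 153534599 to 153634361, and 22 other genes lie in it or within 200 kb, of which 7 were in the table and 6 reached 1 TPM. Of the 6, none was 1.5-fold apart with USP51, against 1.41% of all genes in SW480 and 2.11% in HCT116. Their log2 ratios ran from -0.10 to 0.00 in SW480 and from -0.09 to 0.18 in HCT116. Between the NC means they ran from -1.25 to 0.38, with 3 of 6 at least 2-fold lower in SW480, against 14.7% of all genes.

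The genes most like S100A3 and S100A14 over the 4 means were found by the distance of log2(TPM + 1), each centred on its own mean, among 9201 genes of at least 10 TPM in a mean. Nearest to S100A3 were LGR6 (distance 0.08), ARG2 (0.11) and ADAMTSL2 (0.13). ARG2 stood at 102.5 TPM in SW480 with USP51, 77.7 in SW480 NC, 9.54 in HCT116 with USP51 and 7.57 in HCT116 NC. Nearest to S100A14 were MAGEB2 (0.19), EREG (0.33) and AREG (0.40), the last 2 being ligands of the EGF receptor. EREG stood at 0.80 and 0.703 TPM in SW480, against 283.8 and 307.2 TPM in HCT116, with USP51 first in each line. With 4 means and 9201 genes searched, some will lie close to any pattern.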

How the data were processed

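The submitters' processing notes name TopHat, DESeq 1.32.0 and the build hg38, with no role given. No source used here gives the counting tool or the strand setting. Per the file headers, the authors deposited estimated counts (not whole, not divided by depth), TPM values and FPKM values for 84345 RefSeq transcripts, each also as a mean per cell line and a letter. The letter E was taken to mean USP51 overexpression and C the control, since the labels define neither, and every direction with USP51 rests on that reading. The 36 single-library columns carry codes that match no label and were not used, so the planned edgeR tests were left out.

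Transcripts were summed per NCBI gene and 17672 of 17818 genes received a symbol from RefSeq (GRCh38.p14). A gene was compared where 1 of the 2 means reached 1 TPM, with a pseudocount of 1 TPM. Ratios of counts used means rounded to whole numbers, and Clopper-Pearson intervals and the floor of 3 counts leave out all but counting error, PCR duplicates not being separate molecules. The interval code was tested on simulated data. Promoter windows were found for 10 of 10 members. Scaling factors came from edgeR 4.0.16 in R 4.3.3, and the rest from Python 3.11.15.

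The members, lists and comparisons were chosen with earlier results of these data known. Genes were named by rule: the 10 members, USP51, other S100 genes at 1 TPM, listed genes 1.5-fold apart with USP51 or 4-fold apart between the NC means, and the 3 nearest patterns of the members with the largest differences. ANXA2, SYT1, TCHH and S100A9 were named outside it, after their values were seen. The cell type markers KRT20, VIL1, COL1A1 and PTPRC were also named outside it, for their levels. A gene that the rule names, and the list that holds it, are not reported here. The settings tried instead were a pseudocount of 0.1, no filter, FPKM, CPM with TMM or RLE factors, and curated transcripts alone.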

Additional observations from a re-analysis of the deposited data

How the results depend on the processing

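Of the 26 log2 ratios of members, 23 kept their sign under all 6 alternatives. The exceptions, S100A10 and S100A13 in SW480 and S100A13 in HCT116 with USP51 over NC, stayed between -0.03 and 0.06. Of 156 member values under an alternative, 15 moved from the main value by at least the counting interval's reach to either side on log2. These were 7 with TMM factors, 7 with RLE factors and 1 with FPKM. S100A6 between the NC means, for example, had -1.17 in TPM and -1.06 with TMM factors. S100A3 in SW480 ran from 0.52 to 0.56, and S100A14 between the NC means from -9.12 to -7.12. With CPM the members at least 2-fold apart between the NC means were 7 in place of 6, S100A4 being added. Without the filter, 1 member passed 1.5-fold with USP51 in HCT116, S100P, on under 3 counts. Counts over all genes moved more. In SW480 the 172 genes at least 1.5-fold apart were 375 with a pseudocount of 0.1 and 109 with FPKM, and the 24 at least 2-fold apart were 74, 15 and, with curated transcripts alone, 38. In HCT116 the 261 at 1.5-fold were 552 with a pseudocount of 0.1 and 159 with FPKM, and the 35 at 2-fold were 127, 23 and, with curated transcripts alone, 56. The share that was higher moved to 53.8% with CPM, against 37.8% in TPM, for SW480 at 1.5-fold, and to 76.8% with curated transcripts alone, against 91.4%, for HCT116 at 2-fold. The cause of these shifts was not tested. Depth limits S100P everywhere and S100A14 in SW480. No paired analysis was possible because no single-library column carries a replicate number or code that matches a label. The block, leaving out replicates, edgeR and DESeq2 were not run.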
